A study of Mus musculus with 19 samples.

Results

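The Ifi200 genes lie side by side on mouse chromosome 1 and encode PYHIN proteins, which combine DNA-binding HIN domains with, in most members, a pyrin domain that joins other pyrin domains. Interferon induces many of them in immune cells. Ifi202b encodes p202, a member that binds DNA but has no pyrin domain and can restrain Aim2, the DNA sensor of an inflammasome, and its level is known to depend strongly on mouse strain. The 10 genes described here were Ifi202b, Ifi203, Ifi204, Ifi205, Ifi207, Ifi208, Ifi209, Ifi211, Mndal and Aim2, found by name among 36682 genes of the deposited expression table. They were chosen with values of these libraries known: Ifi202b was selected on its counts in naive mice given AP20187, so its levels in that group are a description and carry no test.

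RNA came from dorsal root ganglia, the clusters of sensory neuron cell bodies beside the spinal cord, pooled over levels L3 to L5 of single male mice. Every mouse, controls included, was homozygous for the MaFIA transgene, in which the Csf1r promoter drives a Fas-based death receptor in macrophages and related myeloid cells. The drug AP20187 pairs these receptors and so triggers death of the cells that carry them. Mice had knee surgery that destabilizes the medial meniscus (DMM), a model of osteoarthritis, and were treated 8 weeks later, or were naive and of matched age. AP20187 or vehicle was injected into the peritoneum daily for 5 days. The 4 groups were DMM with AP20187 (5 mice, numbered 58 to 62), DMM with vehicle (5 mice, numbered 32, 33, 34, 63 and 64), naive with AP20187 (4 mice, numbered 1, 3, 4 and 5) and naive with vehicle (5 mice, numbered 1 to 5). The labels give no background strain, no age in weeks and no batch.

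Library totals ran from 60984830 to 74691396 counts. Levels in CPM are counts scaled to library size after TMM normalization. The summed level of 5 sensory neuron markers was lower in every AP20187 library than in every vehicle library, at 761.6 to 1936 against 2409 to 3452 CPM in naive and 929.1 to 1966 against 2207 to 3644 CPM in DMM mice, with none at 0 in any group. In DMM mice 3 of the 5 were called lower (median -1.37), and in naive mice none passed (median -1.04, 3 with an unadjusted p under 0.05). The part of this shift in the values of the family was not tested. Of 8 macrophage markers tested, 3 passed the test in naive mice, where 11.2% of all genes were called, and 1 in DMM mice, where 23.8% were, all higher. Csf1r itself differed by 0.45 (log2) in naive and -0.02 in DMM mice, with edgeR adjusted p of 0.554 and 0.982, and Cx3cr1 by 0.55 in naive and -0.64 in DMM mice, with adjusted p of 0.507 and 0.389. All 4 granulocyte precursor markers rose and all 6 B cell markers fell with AP20187 in both settings.

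Ifi202b was read in all 4 naive AP20187 mice and was at or near 0 in every other mouse. The gene is ENSMUSG00000026535, listed in the files at chr1:173790134-173810310 on the minus strand, in build GRCm39 per the submitters' processing notes. Its counts were 201 in naive AP20187 mouse 1, 12 in mouse 3, 61 in mouse 4 and 98 in mouse 5. The other 15 libraries held 8 counts together, 4 in DMM AP20187 mouse 58 and 4 in DMM vehicle mouse 32, with 0 in the remaining 13. As CPM, the naive AP20187 mice had 3.48, 0.203, 1.03 and 1.59, a mean of 1.57 ± 1.39 (SD, n = 4). The lowest of these lay above the highest of any other group, 0.0617 CPM, but the 4 mice differed among themselves by 17.1-fold.

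Against the floor of 3 counts per library, 0.0400 to 0.0519 CPM, the mean of naive AP20187 was at least 35.4-fold higher than that of naive vehicle, where all 5 libraries were at 0. Over the whole table the value 4 occurred 16651 times, the value 3 only 7867 times and the value 5 only 5530 times, so a count of 4 may stand for 1 sequenced fragment. If so, the floor would be 12 counts and the bound 8.84-fold, and mouse 3 would be at that floor. Mouse 1 weighed most on the mean, which was 0.939 ± 0.697 CPM (SD, n = 3) without it. The other 3 groups, with means of 0.0123 CPM in DMM vehicle, 0.0121 in DMM AP20187 and 0 in naive vehicle, cannot be ordered at this depth.

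**Figure D1:**
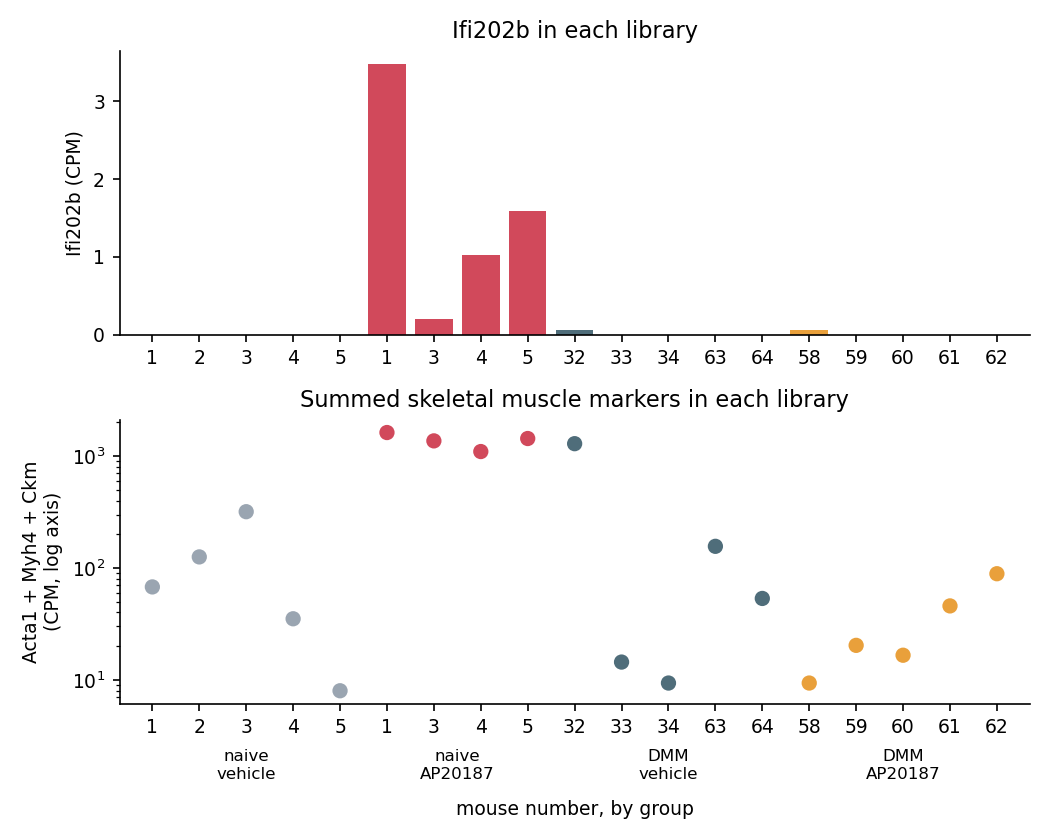
Ifi202b in each of the 19 libraries as CPM (upper panel, bars) and the summed CPM of the skeletal muscle genes Acta1, Myh4 and Ckm in the same libraries (lower panel, points, log axis), by group and mouse number. Ifi202b stands at 0.203 to 3.48 CPM in the 4 naive AP20187 mice and at 0.0617 CPM or less elsewhere, and DMM vehicle mouse 32 has their high muscle level with 0.0617 CPM of Ifi202b.

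Ifi202b shared no long run of sequence with other transcripts. None of the 1648 stretches of 50 bases in annotated Ifi202b transcripts (GENCODE, build GRCm38) occurs in a transcript of another gene. The nearest family members on both sides were read in every group. Ifi203, 19896 bases away, held 5510 counts in naive AP20187 mice and 6137 in naive vehicle mice, and Ifi205, 29254 bases away on the other side, held 2275 and 703. The predicted gene Gm18445 lies nearer, at 4182 bases, and held 5 counts in naive AP20187, 6 in naive vehicle, 4 in DMM AP20187 and 0 in DMM vehicle mice.

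The 250 bases that precede the RefSeq start of Ifi202b are shown because they lacked the element that many of its neighbours carry, which is described further on. The window is chr1:173982795-173983094 on the minus strand of GRCm38.p6, with 50 bases after the start left out. The reference is a single strain and need not be the sequence of these mice.
Ifi202b: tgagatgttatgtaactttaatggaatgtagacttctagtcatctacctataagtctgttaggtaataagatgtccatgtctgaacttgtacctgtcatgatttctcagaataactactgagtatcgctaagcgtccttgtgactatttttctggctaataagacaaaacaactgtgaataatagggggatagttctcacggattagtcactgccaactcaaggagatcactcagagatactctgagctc

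The genes outside the family whose log2 CPM followed Ifi202b most closely over the 19 libraries were mostly muscle genes. Family members were left out of this search. Among 15004 named genes, Pearson's r was 0.870 for Actn2, 0.855 for Prl2c2, 0.849 for Ryr1, 0.849 for Pgam2 and 0.848 for Prl2c3. Actn2, an actinin of muscle Z-discs, ranged from 10.3 to 15.8 CPM in naive AP20187 mice and from 1.00 to 1.75 in naive vehicle mice. Ryr1, the calcium release channel of muscle, ranged from 22.2 to 35.4 CPM and from 1.44 to 5.63 CPM in the same groups, and Pgam2 is the muscle form of a glycolytic enzyme. Prl2c2, a prolactin-family hormone gene, ranged from 1.05 to 2.87 CPM in naive AP20187 mice, was at 0 in all 10 vehicle mice and reached 0.263 in DMM AP20187 mice. These r rest on the same 4 libraries that stand apart in Ifi202b, share their depth, and carry no test.

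Muscle genes were high in the same group as Ifi202b. The sum of the 3 muscle markers was 1622, 1367, 1097 and 1435 CPM in naive AP20187 mice 1, 3, 4 and 5, against 7.98 to 318.1 in naive vehicle mice. Each marker had an unadjusted p under 0.05 between these groups, but none of the 3 passed after adjustment. Mice 1 and 5 were the highest in both, and mouse 3, with the lowest Ifi202b, had more muscle signal than mouse 4. DMM vehicle mouse 32, one of the 2 mice outside the group with any Ifi202b counts (4), had 1290 CPM of muscle signal, inside the naive AP20187 range. The part of muscle RNA in the Ifi202b values was not tested.

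Genes whose level is known to mark mouse substrains were read beside Ifi202b. Of 7 listed, 5 were tested, and in naive mice, where 11.2% of all genes were called, none passed (2 had an unadjusted p under 0.05). Nnt, a mitochondrial transhydrogenase that is defective in one widely used substrain, ranged from 36.3 to 58.1 CPM in naive AP20187 and from 26.1 to 38.8 CPM in naive vehicle mice, and these ranges overlap. In DMM mice Nnt was higher and Glo1 and Entpd4b lower with AP20187, beside 23.8% of all genes called. Nnt was read in all 19 libraries, at 25.6 CPM or more.

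Of the 10 genes, 8 were read in all 19 libraries, Ifi208 in 14 and Ifi202b in 6, and all 10 passed the filter on low counts. Ifi202b passed it only through the naive AP20187 libraries, the group it was selected on. Ordered by FPKM (counts per length and library size), the mean over the 19 libraries was 7.61 for Ifi211, 5.82 for Ifi204, 4.91 for Mndal, 4.78 for Ifi207, 3.83 for Ifi209, 3.14 for Ifi203, 1.70 for Aim2, 1.25 for Ifi205, 0.170 for Ifi202b and 0.0548 for Ifi208. The order differed between groups. It began with Ifi211 (10.5), Ifi204 (7.96) and Ifi207 (6.53) in DMM AP20187 mice and with Ifi211 (10.09), Ifi204 (7.69) and Ifi207 (7.25) in naive AP20187 mice. It began with Ifi209 (6.93), Ifi211 (6.60) and Mndal (5.91) in DMM vehicle mice and with Mndal (3.83), Ifi211 (3.69) and Ifi209 (3.51) in naive vehicle mice. Ifi209 and Ifi211 could not be ordered in DMM vehicle mice: Ifi209 was the higher in mice 34 and 64 only, and without mouse 64 the means were 4.598 and 4.620. Ifi209 averaged 2.24 and 2.35 FPKM in DMM and naive AP20187 mice. Ifi211 exceeded Ifi204 in all 19 libraries, Ifi203 exceeded Aim2 in 18 and Aim2 exceeded Ifi205 in 15. The neighbours in the order from Ifi204 to Ifi203 changed places freely: Ifi204 exceeded Mndal in 11 libraries, and Mndal exceeded Ifi207, Ifi207 exceeded Ifi209 and Ifi209 exceeded Ifi203 in 10 each.

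These levels depend on how reads shared between paralogs were assigned. Of the 50-base stretches of Ifi211, 72.8% occur in transcripts of other genes, mainly Ifi205 and Ifi204, and of those of Ifi209 33.7%, nearly all in Ifi214. The share was 20.8% for Ifi208, 20.02% for Ifi204, 19.6% for Mndal, 18.6% for Ifi205, 12.2% for Ifi203, 7.29% for Ifi207 and 0.628% for Aim2. Ifi211 had the largest share of the 10, and its values relative to Ifi205 and Ifi204 rest on that assignment.

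In naive mice, 4 of the 9 genes tested beside Ifi202b rose with AP20187: Ifi205, Ifi207, Ifi211 and Ifi204. Over all 22778 genes 11.2% were called and 8.61% were called higher in this comparison. The 9 genes had a median log2 fold change of 1.07, against -0.07 for all genes tested. Calls are edgeR quasi-likelihood tests with a Benjamini-Hochberg adjusted p under 0.05. Of the 2548 calls, 1962 were higher; with library totals in place of TMM 1550 of 2465 were higher, and on log2(FPKM + 1) 1594 of 3958. On log2(FPKM + 0.1) the median of all genes was -0.21, and on both FPKM scales 4 of the members were called. In bulk ganglia, more cells of a type and more RNA per cell cannot be told apart.

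Ifi205, whose product controls the level of the inflammasome adaptor Asc in macrophages, had 12.4, 10.8, 5.53 and 9.56 CPM in naive AP20187 mice 1, 3, 4 and 5. In naive vehicle mice 1 to 5 it had 1.48, 1.00, 3.35, 3.86 and 0.735 CPM. Every treated mouse lay above every control, and the fitted change was 2.20 (log2, SE 0.52, edgeR adjusted p = 0.0119), or 4.59-fold. Ifi207 had 23.8, 36.1, 28.2 and 27.2 CPM in the treated mice and 9.58, 5.24, 12.7, 10.6 and 4.16 CPM in the controls. Every treated mouse again lay above every control, and the change was 1.77 (SE 0.41, edgeR adjusted p = 0.0105).

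Ifi211 had 20.9, 25.8, 16.3 and 20.9 CPM in naive AP20187 mice and 6.23, 3.69, 11.9, 8.83 and 2.85 CPM in naive vehicle mice. The groups did not overlap, and the change was 1.65 (SE 0.48, edgeR adjusted p = 0.0324). Ifi204 encodes p204, a DNA-binding regulator of myeloid differentiation, and had 31.6, 39.9, 28.1 and 28.2 CPM in the treated and 10.7, 6.64, 20.1, 13.7 and 4.93 CPM in the control mice. It too separated fully, with a change of 1.51 (SE 0.45, edgeR adjusted p = 0.0373). The 4 called genes were the 4 of the 9 without overlap, and 15.5% of all genes tested had CPM ranges that did not overlap between these groups.

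The calls for Ifi211 and Ifi204 ended, and 2 of the 9 genes were left, when naive AP20187 mouse 1 or 3 or naive vehicle mouse 1, 2 or 5 was left out. Those fits called 994 to 1566 genes over all genes, against 2548 with every mouse. The adjusted p with 1 library left out then reached 0.0936 for Ifi211 and 0.111 for Ifi204, while their fitted changes stayed at 1.36 or more. Ifi205 and Ifi207 were called with each of the 19 libraries left out in turn.

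The other 5 genes did not pass in naive mice. Aim2 ranged from 4.12 to 8.14 CPM with AP20187 and from 0.909 to 5.49 CPM with vehicle, a change of 0.92 (SE 0.50, edgeR adjusted p = 0.231). Mndal, whose product is related to the myeloid nuclear differentiation antigen, changed by 0.59 (SE 0.43), Ifi203 by 0.35 (SE 0.40) and Ifi209 by -0.38 (SE 0.50). Ifi208 held 0 to 81 counts in a library, too few for a statement (1.07, SE 1.34).

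**Figure D2:**
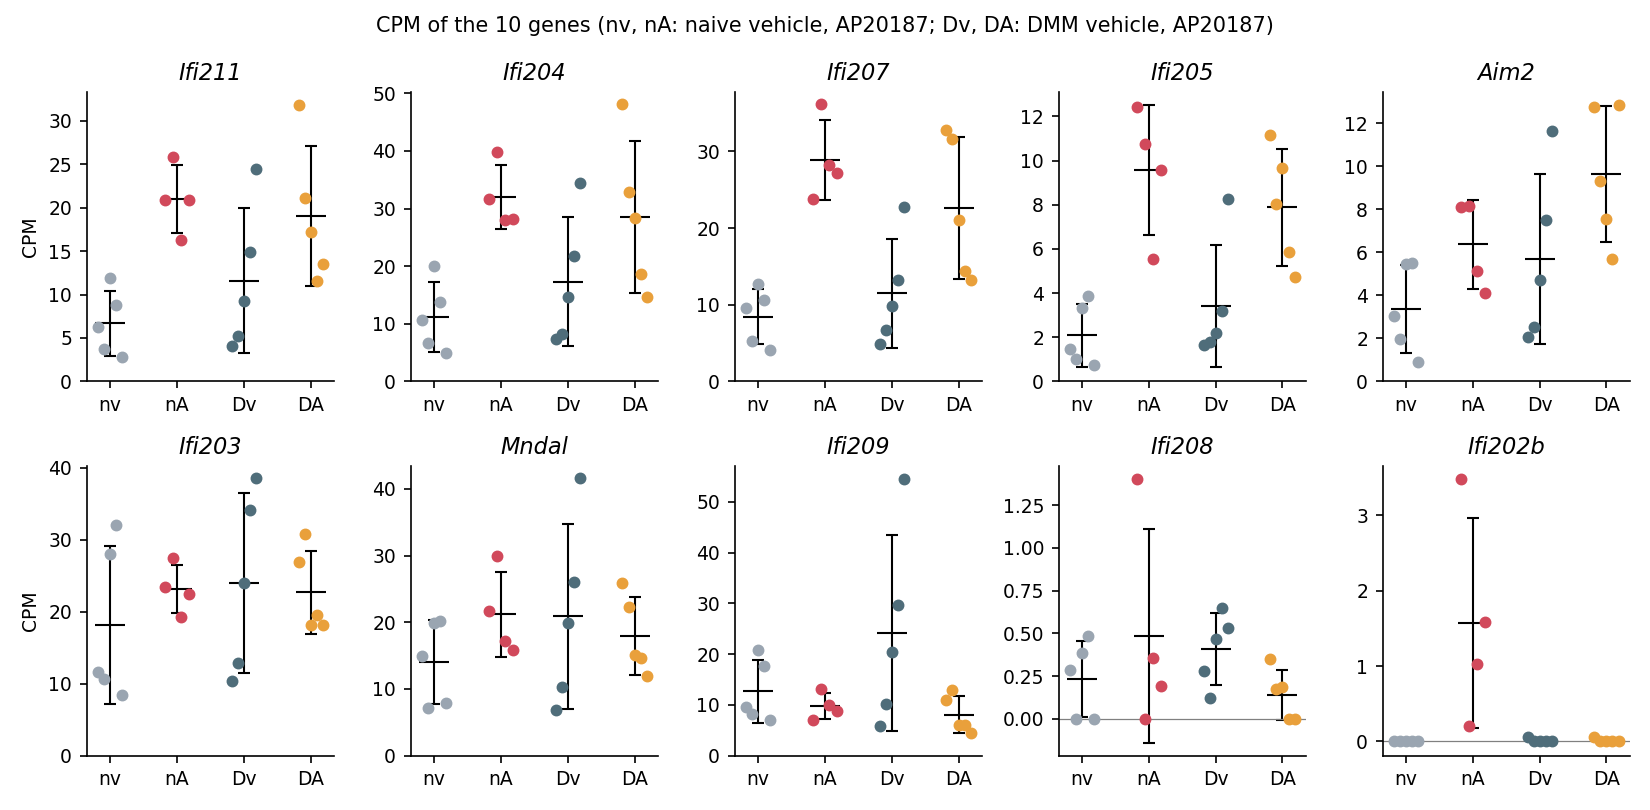
CPM of the 10 genes in each mouse, with the mean and SD of the group; nv and nA are naive mice with vehicle and AP20187, Dv and DA are DMM mice with vehicle and AP20187, and each panel has its own axis. Ifi211, Ifi204, Ifi207 and Ifi205 separate fully between nv and nA, whereas in DMM mice the ranges of all 10 genes overlap between Dv and DA.

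The stretches around an interferon-type element near the starts of the members are shown because several members rose together. The element searched was GAAANNGAAA on both strands, the letters at the core of interferon-stimulated response elements, in RefSeq windows of 250 bases before to 50 after each start (GRCm38.p6). Windows were given for 9 of the 10 genes, all but Ifi204, 11 windows in all. A match was found in 6 genes and 7 windows, and in 3.44% of the 32851 windows of all genes. Capitals mark the match, or in Ifi209, which had none, the closest stretch. Each stretch is 40 bases on the strand of the gene, and positions count from the start.
Ifi211: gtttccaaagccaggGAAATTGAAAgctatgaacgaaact
Ifi205: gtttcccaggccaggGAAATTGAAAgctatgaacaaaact
Ifi207: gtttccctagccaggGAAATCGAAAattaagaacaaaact
Ifi208: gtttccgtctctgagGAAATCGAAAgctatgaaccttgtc
Mndal: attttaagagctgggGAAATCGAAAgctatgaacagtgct
Ifi203: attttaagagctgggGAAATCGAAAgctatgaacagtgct
Ifi209: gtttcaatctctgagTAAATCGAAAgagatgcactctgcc

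The first base of the match lay at -37 in Ifi211 (window chr1:173912997-173913296), -134 in Ifi205 (chr1:174031706-174032005), which had a further match, -41 in Ifi207 (chr1:173741760-173742059), -58 in Ifi208 (chr1:173673415-173673714), -36 in Mndal (chr1:173880138-173880437) and -35 in the matching one of 2 Ifi203 windows (chr1:173942443-173942742). Ifi208, Ifi209 and Aim2 are on the plus strand and the others on the minus strand. The stretches of Mndal and Ifi203 are identical over their 40 bases. Ifi209 had no match in chr1:173630609-173630908, and the stretch before its start that came closest on the strand of the gene, at -79, differs in 1 base of the fixed letters. In Ifi202b and Aim2 the closest stretch on that strand differed in 3 bases. Genes with a match were found among those that rose in naive mice (Ifi205, Ifi207, Ifi211) and those that did not pass (Ifi203, Ifi208, Mndal). A match is a description of letters and not evidence of a bound factor.

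In DMM mice, 1 of the 10 genes was called with AP20187, and it was lower: Ifi209. Ifi202b, with 4 counts in each DMM group, had too few for a call and adds nothing to this count. Over all genes 23.8% were called and 12.4% were called lower in this comparison, and 1 of 10 is not a result about the family beside these shares. The 10 genes, Ifi202b with its few counts included, had a median log2 fold change of 0.36, against -0.10 for all genes tested. CPM ranges overlapped for all 10 genes, Ifi202b being at or near 0 in both groups, whereas 12.9% of all genes tested had ranges that did not.

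Ifi209 had 10.97, 12.9, 5.95, 5.98 and 4.47 CPM in DMM AP20187 mice 58 to 62. In DMM vehicle mice 32, 33, 34, 63 and 64 it had 5.91, 10.2, 20.3, 29.6 and 54.5 CPM. Vehicle mice 34, 63 and 64 lay above all treated mice, and vehicle mice 32 and 33 lay among them. The change was -1.58 (SE 0.48, edgeR adjusted p = 0.0259), a level 2.99-fold lower. The call ended without vehicle mouse 64 (-1.04, adjusted p = 0.0737), without AP20187 mouse 60 (adjusted p = 0.0601) and without AP20187 mouse 62 (adjusted p = 0.0624). It also ended with voom and sample weights (-0.85, adjusted p = 0.0923) and on log2(FPKM + 1) and log2(FPKM + 0.1) (adjusted p = 0.0602 and 0.0621). With vehicle mice 32 to 34 alone as controls it was -0.59 (edgeR adjusted p = 0.312).

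The 4 genes that rose in naive mice had positive but uncalled differences in DMM mice. Ifi205 ranged from 4.74 to 11.2 CPM with AP20187 and from 1.63 to 8.27 CPM with vehicle, a change of 1.20 (SE 0.49, edgeR adjusted p = 0.0772). The change was 0.98 for Ifi207 (SE 0.39, adjusted p = 0.0709), 0.72 for Ifi204 (SE 0.43, adjusted p = 0.231) and 0.72 for Ifi211 (SE 0.45, adjusted p = 0.262). Vehicle mouse 64 was the highest control for each of them. Without that mouse all 4 passed, from 1.14 for Ifi204 (edgeR adjusted p = 0.0416) to 1.84 for Ifi205 (adjusted p = 0.0053), and Ifi209 did not. In that fit 7677 of 22604 genes were called over all genes, against 5410 of 22778 with every mouse.

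The DMM vehicle mice fall into 2 ranges of label numbers, and the summed level of the family was higher in the second. Summed over the 10 genes, FPKM was 11.4, 15.5 and 29.5 in mice 32, 33 and 34, and 41.0 and 72.2 in mice 63 and 64. These sums rise without a clear gap, with mouse 34 nearer to mouse 63 than to mouse 32, and the difference was not tested. The labels do not say what the numbers stand for. With mice 32 to 34 as the only controls, Ifi211, Ifi205, Ifi204, Ifi207 and Aim2 were called higher with AP20187, where 8450 of all 23283 genes were called. With mice 63 and 64 as the only controls Ifi209 alone was called, at -2.36 (edgeR adjusted p = 0.0092), where 1156 of 24459 genes were called.

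Aim2 ranged from 5.68 to 12.9 CPM in DMM AP20187 mice and from 2.08 to 11.7 CPM in DMM vehicle mice, a change of 0.76 (SE 0.48, edgeR adjusted p = 0.268). Ifi203 and Mndal changed by -0.08 (SE 0.38) and -0.22 (SE 0.41), and their intervals of 2 SE reach from -0.84 to 0.68 and from -1.04 to 0.60. Ifi208 was at 0 to 0.349 CPM in treated and 0.119 to 0.650 CPM in control mice (-1.52, SE 1.31, adjusted p = 0.436). Ifi202b had 4 counts in each of the 2 groups.

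**Figure D3:**
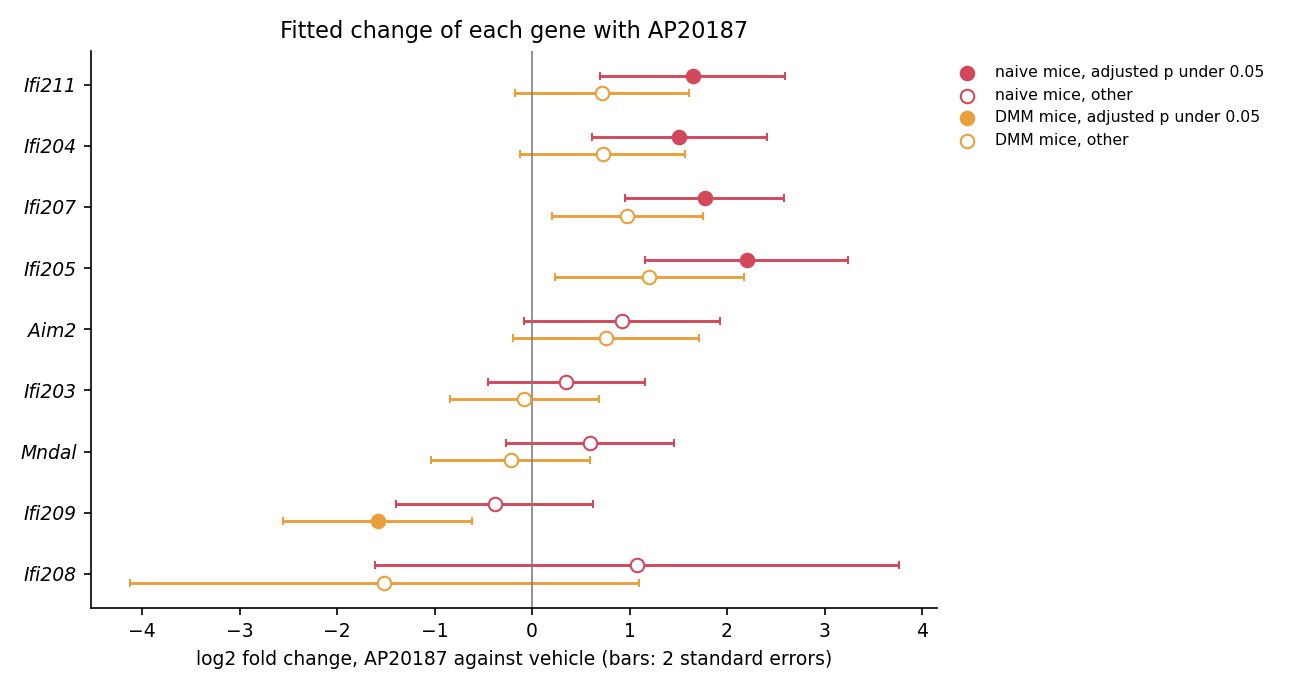
Fitted log2 fold change of AP20187 against vehicle for 9 genes in naive and DMM mice, with bars of 2 standard errors; filled points have an adjusted p under 0.05, and Ifi202b is left out because it was selected on its naive values. The filled points are Ifi211, Ifi204, Ifi207 and Ifi205 in naive mice, all to the right of 0, and Ifi209 in DMM mice, to the left.

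Within a library, the make-up of the family differed between AP20187 and vehicle in both settings. This was seen in the values and carries no test. The share of Ifi209 in the summed FPKM of the 10 genes was 13.97% to 22.5% in DMM vehicle and 14.1% to 19.8% in naive vehicle mice. It was 4.55% to 7.37% in DMM AP20187 and 4.24% to 7.18% in naive AP20187 mice, so no treated mouse reached the lowest vehicle mouse. Ifi211 made up 17.9% to 20.1% in DMM vehicle and 15.9% to 19.5% in naive vehicle mice, and 23.4% to 29.0% in DMM AP20187 and 23.3% to 27.7% in naive AP20187 mice.

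Shares of 1 whole are tied to each other, so those of different genes are not separate observations. The share of Ifi205 was 3.89% to 6.26% with AP20187 and 1.80% to 3.26% with vehicle in DMM mice, and that of Ifi207 14.03% to 18.7% and 9.17% to 12.1%. Mndal went the other way, at 11.4% to 14.7% with AP20187 and 15.8% to 19.1% with vehicle. The shares of Ifi205, Ifi207 and Mndal separated in naive mice too, in the same directions. Those of Ifi203 and Ifi204 separated in naive mice only, and those of Aim2 and Ifi208 in DMM mice only.

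**Figure D4:**
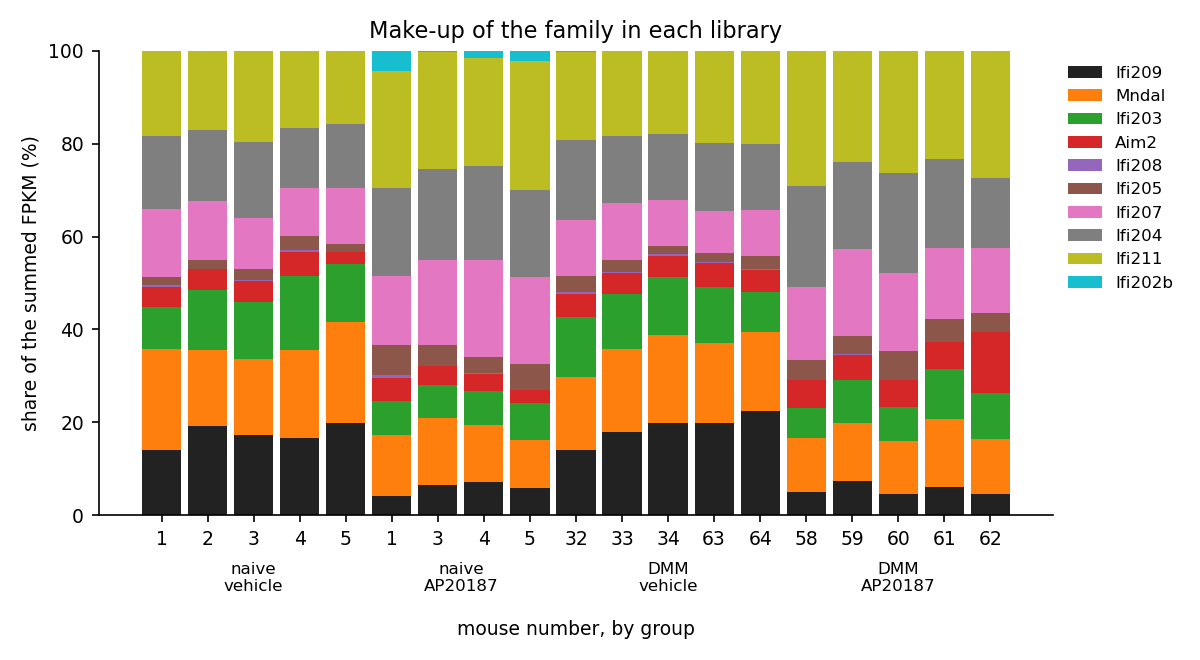
Share of each gene in the summed FPKM of the 10 genes, as a percentage stacked to the whole, for each library by group and mouse number. The black Ifi209 block is between 4.24% and 7.37% in every AP20187 mouse and between 13.97% and 22.5% in every vehicle mouse.

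The ratio of Ifi211 to Ifi209 in FPKM, chosen after the shares were seen, sets a member whose share was higher with AP20187 against one whose share was lower. In vehicle mice it was near 1, from 0.892 to 1.36 in DMM (mean 1.04 ± 0.189, SD, n = 5) and from 0.801 to 1.30 in naive mice (1.02 ± 0.197, SD, n = 5). In AP20187 mice it was 3.25 to 6.03 in DMM (4.93 ± 1.29, SD, n = 5) and 3.24 to 5.91 in naive mice (4.46 ± 1.15, SD, n = 4). The ratio stayed in this range over the spread of the vehicle mice: mouse 64, with the highest Ifi209 of all libraries at 16.3 FPKM, had 14.5 FPKM of Ifi211, and naive vehicle mouse 5 had 1.93 and 1.55 FPKM.

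B cell markers were lower in the groups where the share of Ifi209 was lower. The CPM of Ifi209 itself was called in DMM mice and not in naive mice (edgeR adjusted p = 0.631). All 6 of 6 markers fell with AP20187 in both settings, and their summed level was 2.50 to 8.47 CPM in DMM AP20187, 8.36 to 135.2 in DMM vehicle, 2.60 to 5.27 in naive AP20187 and 21.2 to 51.2 CPM in naive vehicle mice. Igll1 was at 0 in all naive AP20187 mice. Ccr2, a receptor of inflammatory monocytes, also fell, by 2.59 in DMM (SE 0.56, edgeR adjusted p = 0.0043) and by 2.05 in naive mice (SE 0.60, adjusted p = 0.0342), while 4 of 5 monocyte markers in DMM and 3 of 5 in naive mice rose. The part of these cells in the Ifi209 values was not tested.

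**Figure D5:**
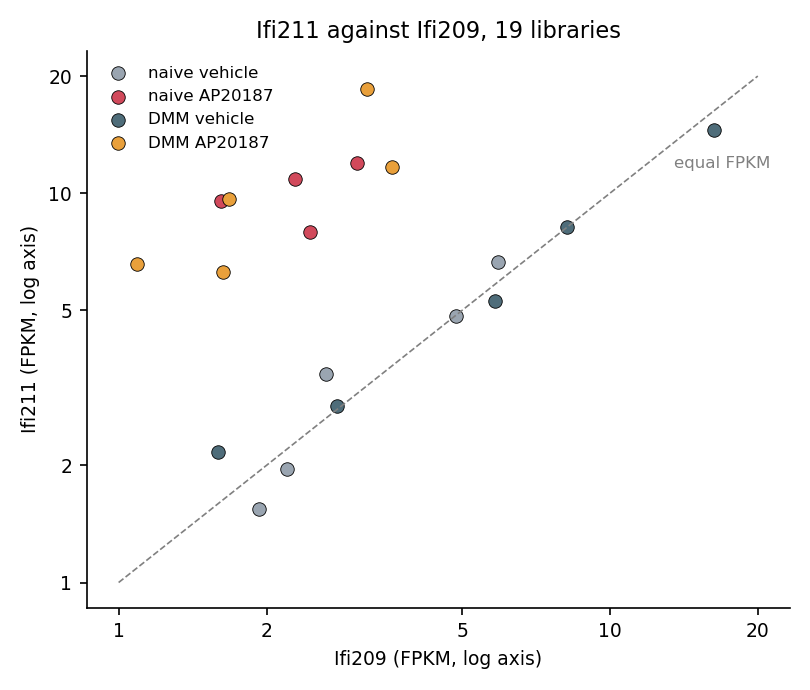
FPKM of Ifi211 against FPKM of Ifi209 in the 19 libraries on log axes, coloured by group, with a dashed line of equal values. The 10 vehicle mice lie near the line with ratios of 0.801 to 1.36, and the 9 AP20187 mice lie above it with ratios of 3.24 to 6.03.

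Across the 19 libraries the members fell into a close set and a looser one, given here as a description over libraries that share their groups. Over 28 pairs of the 8 members read in every library, Pearson's r of log2 CPM had a median of 0.812. Ifi204 and Ifi211 reached 0.988, Ifi204 and Ifi207 0.974, and Ifi207 and Ifi211 0.967, and Ifi203 and Mndal reached 0.913. Ifi209 gave the lowest values, 0.0957 with Ifi205 and 0.194 with Ifi207, but 0.703 with Mndal. Part of the r of Ifi211 with Ifi204 and Ifi205 may come from shared sequence, and this was not tested.

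Family members were left out of the search for the genes most like Ifi211. Out of 15004 other genes these were Cd68, a lysosomal protein of macrophages (r = 0.977), Ly6e, an interferon-inducible surface protein (0.969), Apobec1, a cytidine deaminase (0.961), P2ry6, a nucleotide receptor (0.958), and Nr1h3, the oxysterol receptor LXR alpha (0.958). Cd68 ranged from 26.3 to 53.7 CPM in naive AP20187 and from 5.25 to 17.1 CPM in naive vehicle mice. It ranged from 20.3 to 44.2 CPM in DMM AP20187 and from 5.69 to 39.5 CPM in DMM vehicle mice.

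No member passed between DMM and naive mice. Between DMM and naive mice given vehicle, edgeR called 0.0% of the 22778 genes, with 377 at an unadjusted p under 0.05 and none of the 10 members among them. DESeq2 also called 0, and voom with sample weights called 1 gene. The median of the 10 members was 0.74, against 0.03 for all genes, with Ifi202b resting on 4 counts, too few for a call. Ifi209 was at 0.93 (SE 0.48) and Ifi211 at 0.79 (SE 0.45). Between DMM and naive mice given AP20187, 0.702% of all genes (160) were called, against 1109 genes with DESeq2 and 2456 with voom and sample weights. EdgeR called 0 of the 9 members tested (smallest adjusted p 0.532), whose median was -0.24 against -0.01 for all genes.

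The AP20187 effect was not shown to differ between DMM and naive mice for any member. The interaction called 0.114% of all genes and none of the 9 members tested, among which the smallest edgeR adjusted p was 0.755, for Ifi209 (-1.20, SE 0.69). The median of the 9 was -0.81, against -0.08 for all genes. For Ifi205 the difference was -0.996 and its interval of 2 SE reached from -2.39 to 0.40.

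Beside the family, some genes of interferon signalling, of DNA sensing and of the inflammasome rose with AP20187. Their counts stand beside 23.8% of all genes called in DMM and 11.2% in naive mice, and the lists were not tested against other genes. The ligand gene Ifnb1 was at 0 in every mouse of 3 groups. Of 15 ligand, receptor and signalling genes tested, 5 rose and none fell with AP20187 in each setting, with a median of 0.10 in DMM and 0.43 in naive mice, against -0.10 and -0.07 for all genes. Jak2, a kinase of cytokine receptors, rose by 0.78 (SE 0.17) in DMM and 0.66 (SE 0.17) in naive mice, and Ifnar2, a chain of the type I interferon receptor, rose by 0.99 (SE 0.22) and 0.82 (SE 0.23). Irf7, a transcription factor of the response, rose in naive mice, from 9.04 ± 3.31 CPM (SD, n = 5) with vehicle to 25.0 ± 3.71 (SD, n = 4) with AP20187.

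Of 26 type I interferon response genes, 10 rose and none fell in naive mice, and in DMM mice 6 rose and 3 fell, beside the 11.2% and 23.8% of all genes called. None of the 26 passed the interaction (9 had an unadjusted p under 0.05, median -0.74), so the settings were not shown to differ. Between DMM and naive vehicle mice none passed, while 15 of the 26 had an unadjusted p under 0.05 (median 0.69). With AP20187 their median was 0.66 in naive and -0.12 in DMM mice, against -0.07 and -0.10 for all genes. Oas2, which makes the activator of RNase L, rose by 3.48 (SE 0.37) in naive and 3.01 (SE 0.36) in DMM mice, and Trim30a rose by 2.33 (SE 0.42) and 2.30 (SE 0.40). Rsad2, Mx1 and Ifit3b, antiviral effectors, fell in DMM mice, by 1.28 (SE 0.40), 1.78 (SE 0.56) and 0.80 (SE 0.26). Ifit1 and Isg15 did not pass in either setting.

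Of 12 other genes of cytosolic DNA sensing, 6 rose and none fell with AP20187 in each setting, beside the 23.8% and 11.2% of all genes called, with a median of 0.82 in DMM and 1.33 in naive mice. Cgas, the enzyme that makes the second messenger of DNA sensing, rose by 2.03 (SE 0.48) in DMM and 1.96 (SE 0.50) in naive mice. Sting1, the receptor of that messenger, rose by 1.36 (SE 0.31) and 1.75 (SE 0.33), and Ikbke, a kinase of the pathway, by 2.98 (SE 0.44) and 2.43 (SE 0.44). Zbp1, a sensor of left-handed nucleic acid, passed in naive mice, where it rose by 1.95 (SE 0.40).

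Aim2 acts through an adaptor and caspases. Of 14 inflammasome and pyroptosis genes 8 rose and none fell in each setting, beside the 23.8% and 11.2% of all genes called, with a median of 1.13 in DMM and 1.32 in naive mice. Pycard, which encodes the adaptor Asc, rose from 2.81 ± 1.28 to 12.9 ± 5.55 CPM in naive and from 5.10 ± 4.15 to 19.5 ± 7.07 CPM in DMM mice (SD). Casp4, the sensor caspase of lipopolysaccharide, rose by 3.04 (SE 0.47) and 2.78 (SE 0.45), and Casp1, which cleaves interleukin precursors, by 0.97 (SE 0.29) and 1.03 (SE 0.28). Gsdmd, the pore-forming protein of pyroptosis, rose by 1.60 (SE 0.47) and 1.54 (SE 0.45). The cytokine genes Il1b and Il18 did not pass in either setting.

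Of 13 genes whose products are known to bind or be controlled by Ifi200 proteins, 3 rose in naive mice (Rela, Myc and Id2) and 5 rose and 1 fell in DMM mice, beside the 11.2% and 23.8% of all genes called. Id2, an inhibitor of differentiation factors that p204 binds, rose by 1.09 (SE 0.34) in naive and 1.35 (SE 0.33) in DMM mice. Of the 3 other Ifi200 genes tested, Ifi206, Ifi213 and Ifi214, none passed in either setting. Ifi206 was at 2.80 CPM with AP20187 and 1.01 CPM with vehicle in naive mice (1.47, edgeR adjusted p = 0.0876), and Ifi214 was below 1 CPM in every group mean.

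Many markers of myeloid cells were also higher with AP20187, though not in step with the members in each mouse. The summed level of 7 neutrophil markers was 6669 to 23875 CPM in naive AP20187 and 733.9 to 2051 CPM in naive vehicle mice. Of the 7, 5 rose, where 11.2% of all genes were called. The 4 granulocyte precursor markers summed to 285.7 to 1511 CPM and 32.2 to 101.3 CPM. The 8 macrophage markers summed to 375.1 to 636.6 CPM and 72.3 to 389.5 CPM, with 3 of 8 risen. In DMM mice the neutrophil sum was 14169 to 23826 CPM with AP20187 and 353.7 to 6830 CPM with vehicle. The macrophage sums there overlapped, at 196.4 to 812.9 and 130.7 to 531.9 CPM. DMM AP20187 mouse 62 had the highest neutrophil sum of its group and the lowest Ifi204, Ifi205 and Ifi207, at 14.7, 4.74 and 13.3 CPM. Mouse 58, with a neutrophil sum of 21324 CPM, had the highest level of each of these genes. None of these lists had a gene at 0 throughout a group, and their part in the values of Ifi204, Ifi205, Ifi207 and Ifi211 was not tested.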

How the data were processed

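Bulk stranded poly(A) RNA sequencing of 19 mice in 4 groups was used. The authors deposited whole-number counts and FPKM per gene for 36682 genes. Per the submitters' processing notes, cutadapt, HISAT2 and StringTie were used with build GRCm39; their versions, their roles and the annotation are not given in the sources used here. Each gene of the table had an equal entry in the deposited count matrix. FPKM relative to counts was 0.901 to 0.922 of its usual level in naive AP20187 mice 1, 3 and 4 and 0.994 to 1.006 in the other 16 libraries, so shares and ratios of FPKM were taken within libraries.

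Counts were fitted with edgeR 4.0.16 (R 4.3.3) as a quasi-likelihood model of the 4 groups, with TMM, filterByExpr (minimum count 10), 22778 genes, 15 residual degrees of freedom and 5 contrasts. Adjusted p are two-sided Benjamini-Hochberg values over all genes tested, with a threshold of 0.05. Alternatives used DESeq2 1.42.0, and limma 3.58.1 on log2(FPKM + 1), on log2(FPKM + 0.1) and as voom. Correlations used log2 CPM with a prior count of 2. Replicates are single mice; floors of 3 counts cover counting error only.

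The members and lists were chosen with earlier results of these data known. All members were described; of the other lists, genes called in a comparison of AP20187 with vehicle were named by smallest p, with others added after their values were seen.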

Additional observations from a re-analysis of the deposited data

Results flagged for a closer look

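In 39 groups of 4 or 5 mice tested for a mouse far from the rest, 3 values stood apart by Dixon's ratio. Chance gives about 1 in 20 for values that vary continuously, which those of Ifi202b do not. Ifi202b was at 0.0606 CPM in DMM AP20187 mouse 58 and at 0.0617 CPM in DMM vehicle mouse 32, each the only mouse of its group above 0. Both rest on 4 counts and stand apart because the other 4 mice of the group were at 0. Ifi205 was at 8.27 CPM in DMM vehicle mouse 64, where the other 4 mice had 1.63 to 3.17 CPM.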

How the results depend on the processing

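Over all alternatives no member that was called changed its sign. Of 1448 values of single genes, 1347 counted as kept, 20 came to pass, 27 no longer passed and 54 moved without a call. Kept means the same direction and side of the threshold. For Ifi202b in contrasts with naive AP20187 mice, which carry no test, it means a shift within the SE of the main fit. Moved means a changed sign without a call or, for those Ifi202b values, a larger shift. The causes were not tested. In DMM mice the 1 member called with AP20187 became 3 with DESeq2 (Ifi209, Ifi205 and Ifi207), 5 with voom and sample weights (Ifi204, Ifi205, Ifi207, Ifi211 and Aim2, without Ifi209), 5 against DMM vehicle mice 32 to 34 only, 0 in a fit of those groups only and 0 on log2(FPKM + 1) without a filter, and lay between 0 and 4 with each mouse left out. On log2(FPKM + 1) and log2(FPKM + 0.1) the count stayed at 1 but the gene was Ifi205. In naive mice the 4 called became 2 (Ifi205 and Ifi207) without TMM, 2 without the filter, 2 on unfiltered log2(FPKM + 1), and between 2 and 4 with each mouse left out. Between DMM and naive vehicle mice, 1 member (Ifi209) was called when DMM vehicle mice 63 and 64 were used alone, and 0 with each mouse left out.

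The naive groups share mouse numbers, and the labels do not say whether these pair the samples. Same-numbered mice deviated together with r of 0.02, 0.30, -0.08 and 0.18, and mice of different numbers with r of -0.24 to 0.20. These values do not settle whether the samples are paired. With the number as a replicate block, 2 members were called. Over all genes, the 5410 called with AP20187 in DMM mice became 10676 with voom and sample weights, 8450 against DMM vehicle mice 32 to 34 and 1156 against mice 63 and 64. The 2548 called in naive mice became 4356 with DESeq2, 4542 with voom, 3958 and 4063 on the log2(FPKM + 1) and log2(FPKM + 0.1) scales, and 1209 with the replicate block. Between DMM and naive mice given AP20187, the 160 called became 1109 with DESeq2, 2456 with voom, 908 to 1148 on FPKM scales and 73 without the filter. Between DMM and naive vehicle mice, the 0 called became 541 with DMM vehicle mice 63 and 64 alone. The interaction's 26 became 13 without the filter, 224 with DESeq2, 53 with voom and 90 with mice 63 and 64 alone. With each mouse left out, the counts over all genes ran from 3212 to 7677 in DMM, 994 to 3452 in naive, 43 to 269 between the AP20187 groups and 12 to 57 for the interaction. Depth limits Ifi202b and Ifi208, which rest on few counts.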
